A study of Homo sapiens with 10 samples.

Results

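The 10 genes described here are the feedback inhibitors BAMBI, SMAD6, SMAD7 and SKIL, the signal transducer SMAD3, the inhibitor of DNA binding genes ID1, ID2 and ID3, and the ligands TGFB1 and TGFB2, all of the TGF-beta and BMP pathway. They were taken by symbol from the 60623 genes counted in each library. All 10 matched an Ensembl ID, and all 10 were among the 18450 genes that passed the filter on low counts.

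TGF-beta and BMP ligands bind pairs of cell-surface receptor kinases, which phosphorylate SMAD proteins. SMAD2 and SMAD3 carry the TGF-beta and activin signal, SMAD1, SMAD5 and SMAD9 carry the BMP signal, and both groups enter the nucleus with SMAD4. The pathway switches on its own brakes: BAMBI is a pseudoreceptor without a kinase domain, SMAD6 and SMAD7 are inhibitory SMADs that act at the receptors, and SKIL (SnoN) is a corepressor that sits on SMAD complexes. ID proteins have a helix-loop-helix domain but no DNA-binding region, and by pairing with E proteins they keep these transcription factors off their E-box sites. ID genes are classical BMP targets, and melanoma cells are known to make and answer TGF-beta family ligands.

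Messenger RNA was measured in A375, an established melanoma line of human origin that carries activated BRAF, harvested 72 h after transfection of small interfering RNA (siRNA). The 10 libraries came from 2 experiments with controls of their own. Experiment 1 held 4 libraries with siRNA against PHF10, a subunit of the PBAF chromatin remodelling complex, and 2 controls. Experiment 2 held 2 libraries labelled as knockdown of MYC, a transcription factor that binds E-boxes with MAX, and 2 controls. The protocol text gives the controls a control siRNA, while the treatment label of the same samples says that they had none, and no label says that replicates were separate cultures, so the spread between them may be technical. The title of the series names the question, which is the part of PHF10 and PBAF in activation of transcription by MYC.

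A gene was called when the adjusted p of edgeR's quasi-likelihood test, corrected by Benjamini-Hochberg over all 18450 genes, was under 0.05. PHF10 itself had 16.1, 18.0, 15.0 and 15.7 counts per 1 M gene reads (CPM) in the PHF10 knockdown libraries, against 40.1 and 36.6 CPM in the controls of experiment 1. Its log2 fold change was −1.24, with an SE of 0.10 and an adjusted p of 0.00105. The level of PHF10 differed between the experiments, with 124 and 125 CPM in the controls of experiment 2 and 124 and 119 CPM in the labelled MYC knockdown. MYC had 16.7 and 13.3 CPM in the libraries labelled as its knockdown and 15.0 and 26.5 CPM in those of their controls, and these groups overlapped (log2 fold change −0.46, SE 0.39, adjusted p = 0.688). Every direction given below for experiment 2 therefore rests on the labels. Libraries held 20.47 to 38.37 M gene reads. Within experiment 1, PHF10 knockdown libraries 1 and 2 and control 1 had high interferon-response RNA, with a mean of 7.35 to 8.06 log2 CPM over 39 genes, and the other libraries had 3.56 to 4.85. Both parts hold knockdown and control libraries, so values within each part are given where they bear on a result. SOX10, a melanocyte lineage factor, was present at 528 to 676 CPM after PHF10 knockdown and 744 and 867 CPM in its controls, and at 937 and 948 CPM in the labelled MYC knockdown and 828 and 827 CPM in its controls. The pigment genes MLANA and TYR were at or near 0 in every library. MITF, PMEL, DCT and TYRP1, also listed, had log2 fold changes of −0.56, −0.33, −1.16 and 0.79 after PHF10 knockdown and were not called. In the labelled MYC knockdown they had −0.30, −1.07, 0.30 and 1.45, and S100B, another melanocyte marker, −0.71, none of them called. The 8 melanocyte markers summed to 585 to 755 CPM after PHF10 knockdown and 876 to 990 CPM in its controls. They summed to 969 to 978 CPM in the labelled MYC knockdown and 870 to 872 CPM in its controls. S100B was called lower after PHF10 knockdown (log2 fold change −1.11, adjusted p = 0.00924), and NGFR, a marker of dedifferentiated melanoma, lower in the labelled MYC knockdown (−1.99, 0.0289). The other dedifferentiation markers listed, WNT5A, AXL and EGFR, had log2 fold changes of 0.63, 0.15 and 0.02 there and were not called. With NGFR they summed to 1060 to 1200 CPM in the labelled MYC knockdown and 948 to 987 CPM in its controls. The sums were 367 to 539 CPM after PHF10 knockdown and 332 to 419 CPM in its controls. The 5 immune cell markers listed summed to 0.593 to 1.66 CPM after PHF10 knockdown and 0.951 to 1.02 CPM in its controls. They summed to 0.755 to 0.989 CPM in the labelled MYC knockdown and 0.314 to 0.568 CPM in its controls. The 6 fibroblast markers summed to 44.2 to 75.3 CPM after PHF10 knockdown and 40.5 to 65.0 CPM in its controls, and to 14.4 to 15.7 CPM in the labelled MYC knockdown and 17.2 to 18.3 CPM in its controls. The 6 epithelial markers summed to 294 to 359 CPM after PHF10 knockdown and 238 to 253 CPM in its controls, and to 177 to 180 CPM in the labelled MYC knockdown and 276 to 282 CPM in its controls. Of the fibroblast markers COL3A1 was called higher after PHF10 knockdown, at 1.52 to 3.73 CPM against 0.173 and 0.418 CPM in its controls (log2 fold change 3.16, adjusted p = 0.0141), and of the epithelial markers KRT14 was called lower in the labelled MYC knockdown (−1.77, 0.0343). The epithelial sums did not overlap between the groups of either experiment, with 2 to 3 of the 6 genes under 1 CPM throughout each group. Most of each sum was KRT18, which averaged 263 CPM after PHF10 knockdown, 202 CPM in its controls, 157 CPM in the labelled MYC knockdown and 238 CPM in its controls. EPCAM and CDH1 stayed at or under 1.07 CPM. Of all genes tested, groups did not overlap for 27.2% in experiment 1 and 69.7% in experiment 2. The part of these markers in the results below was not tested.

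The sequences upstream of 5 of the genes are shown. BAMBI passed the test, ID1 lay above its controls in every knockdown library of both experiments, and SMAD6, SMAD3 and TGFB2 hold a match to CACGTG or GTCTAGAC. Each runs 5′ to 3′ on the gene's strand, over the 250 bases before the start of transcription annotated by RefSeq on GRCh38.p14, and capitals mark matches to CACGTG (the E-box bound by MYC and MAX), GTCTAGAC (a palindromic SMAD-binding site), GGCGCC (a GC-rich SMAD-binding site) and TGACGTCA (a cyclic AMP response element).
BAMBI, chr10:28677271-28677520, plus strand: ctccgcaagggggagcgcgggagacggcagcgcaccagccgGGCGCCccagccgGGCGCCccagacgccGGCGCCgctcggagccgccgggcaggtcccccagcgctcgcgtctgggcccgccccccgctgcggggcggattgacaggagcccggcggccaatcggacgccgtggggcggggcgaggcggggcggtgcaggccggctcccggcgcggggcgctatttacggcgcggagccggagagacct
ID1, chr20:31605039-31605288, plus strand: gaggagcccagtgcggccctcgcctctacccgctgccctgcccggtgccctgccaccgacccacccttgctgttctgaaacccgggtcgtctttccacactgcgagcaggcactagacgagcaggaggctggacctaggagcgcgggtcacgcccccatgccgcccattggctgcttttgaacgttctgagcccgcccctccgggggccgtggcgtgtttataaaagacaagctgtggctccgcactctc
SMAD6, chr15:66701986-66702235, plus strand: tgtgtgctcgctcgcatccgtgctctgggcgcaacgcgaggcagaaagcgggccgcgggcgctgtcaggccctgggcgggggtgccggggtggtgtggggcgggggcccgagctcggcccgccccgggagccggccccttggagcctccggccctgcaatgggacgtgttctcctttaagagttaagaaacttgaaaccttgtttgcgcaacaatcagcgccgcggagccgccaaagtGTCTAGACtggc
SMAD3 (first of 5 annotated starts), chr15:67065352-67065601, plus strand: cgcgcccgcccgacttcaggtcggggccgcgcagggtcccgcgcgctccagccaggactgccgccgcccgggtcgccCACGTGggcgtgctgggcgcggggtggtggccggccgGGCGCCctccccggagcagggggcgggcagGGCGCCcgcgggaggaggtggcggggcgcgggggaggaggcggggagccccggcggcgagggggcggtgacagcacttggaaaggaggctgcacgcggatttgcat
TGFB2, chr1:218345086-218345335, plus strand: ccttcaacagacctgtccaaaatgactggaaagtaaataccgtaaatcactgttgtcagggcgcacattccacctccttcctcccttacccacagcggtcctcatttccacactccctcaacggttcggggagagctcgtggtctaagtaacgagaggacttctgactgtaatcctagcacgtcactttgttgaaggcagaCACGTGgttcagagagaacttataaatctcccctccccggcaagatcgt

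Both strands of windows of 300 bases, from 250 before to 50 after the start, were searched, and the share of all 35116 RefSeq windows with a match was 7.26% for CACGTG, 0.202% for GTCTAGAC, 19.2% for GGCGCC and 1.85% for TGACGTCA. BAMBI held GGCGCC at 3 places, beginning 209, 196 and 181 bases before the start. SMAD6 held GTCTAGAC 12 bases before it. The first SMAD3 window held CACGTG 173 bases before the start and GGCGCC 136 and 106 bases before it, and TGFB2 held CACGTG 49 bases before it. SKIL, not shown, held GGCGCC 190 bases and TGACGTCA 54 bases before its start. None of these 4 motifs was in a window of ID1, ID2, ID3, SMAD7 or TGFB1. The looser E-box CANNTG, which includes CACGTG, was in 68.7% of all windows and in at least one window of TGFB2, ID2, SMAD6, SMAD3 and SMAD7. The AP-1 site TGANTCA was in 7.71% of all windows and in one window of SMAD3. A match is a string of letters and not a measured site.

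BAMBI was the only gene of the 10 to pass the test, and it moved in opposite directions in the 2 experiments. It had 46.4, 66.5, 65.1 and 58.5 CPM in the PHF10 knockdown libraries, against 84.4 and 96.7 CPM in the controls of experiment 1. It had 162 and 178 CPM in the labelled MYC knockdown libraries, and 82.9 and 82.7 CPM in those of the experiment 2 controls. No knockdown library overlapped its controls, and the controls of both experiments lay between the low PHF10 knockdown libraries and the high labelled MYC knockdown libraries. Groups did not overlap for 27.2% of all genes tested in experiment 1 and 69.7% in experiment 2. The log2 fold change of BAMBI was −0.61 after PHF10 knockdown, with an SE of 0.14 and an adjusted p of 0.0362, so it fell there. In experiment 2 it rose, at 1.04 with an SE of 0.17 and an adjusted p of 0.0388. The effect of PHF10 knockdown minus that of the labelled MYC knockdown was −1.65 (SE 0.22, adjusted p = 0.0266). Since each knockdown was in its own experiment, a difference between knockdowns cannot be told apart from a difference between experiments. Of all genes tested, 6.34% were called in the first comparison, 0.493% in the second and 0.385% in the difference. Only 3 genes, 0.0163% of all genes tested, were called lower after PHF10 knockdown and higher in the labelled MYC knockdown, namely BAMBI, FGFR3, a fibroblast growth factor receptor, and GNG2, a G-protein gamma subunit. In bulk RNA, a change in the RNA per cell and a change in the share of cells that make it cannot be told apart.

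The direction of BAMBI held in every alternative fit, but its calls rested on few libraries. After PHF10 knockdown its log2 fold change was −0.72 (adjusted p = 0.103) without control 1 of experiment 1, −0.52 (0.259) without control 2 and −0.61 (0.0615) without PHF10 knockdown library 4. Leaving out either labelled MYC knockdown library or either control of experiment 2, which enter through the shared spread only, gave −0.62 with an adjusted p of 0.0723 to 0.0778. Fitted on experiment 1 alone it was −0.62 with an adjusted p of 0.146. Within the interferon-high part of experiment 1 the difference of mean log2 CPM was −0.60, and within the low part it was −0.65. In experiment 2 the log2 fold change without labelled MYC knockdown library 1 or 2 was 1.10 (adjusted p = 0.255) and 0.97 (0.393). Without control 1 or 2 of experiment 2 it was 1.04 (0.398) and 1.03 (0.468), where the single sample left is assumed to vary like the other groups. It was 1.04 (0.0599) without PHF10 knockdown library 4, and 1.03 without control 1 (0.0547) or control 2 (0.0563) of experiment 1. Fitted on experiment 2 alone it was 1.05 with an adjusted p of 2.6e-24. The difference between the 2 effects was −1.75 (0.0769) and −1.55 (0.0941) without control 1 or 2 of experiment 1, and −1.72 to −1.59 (0.175 to 0.215) without one library of experiment 2.

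**Figure D1:**
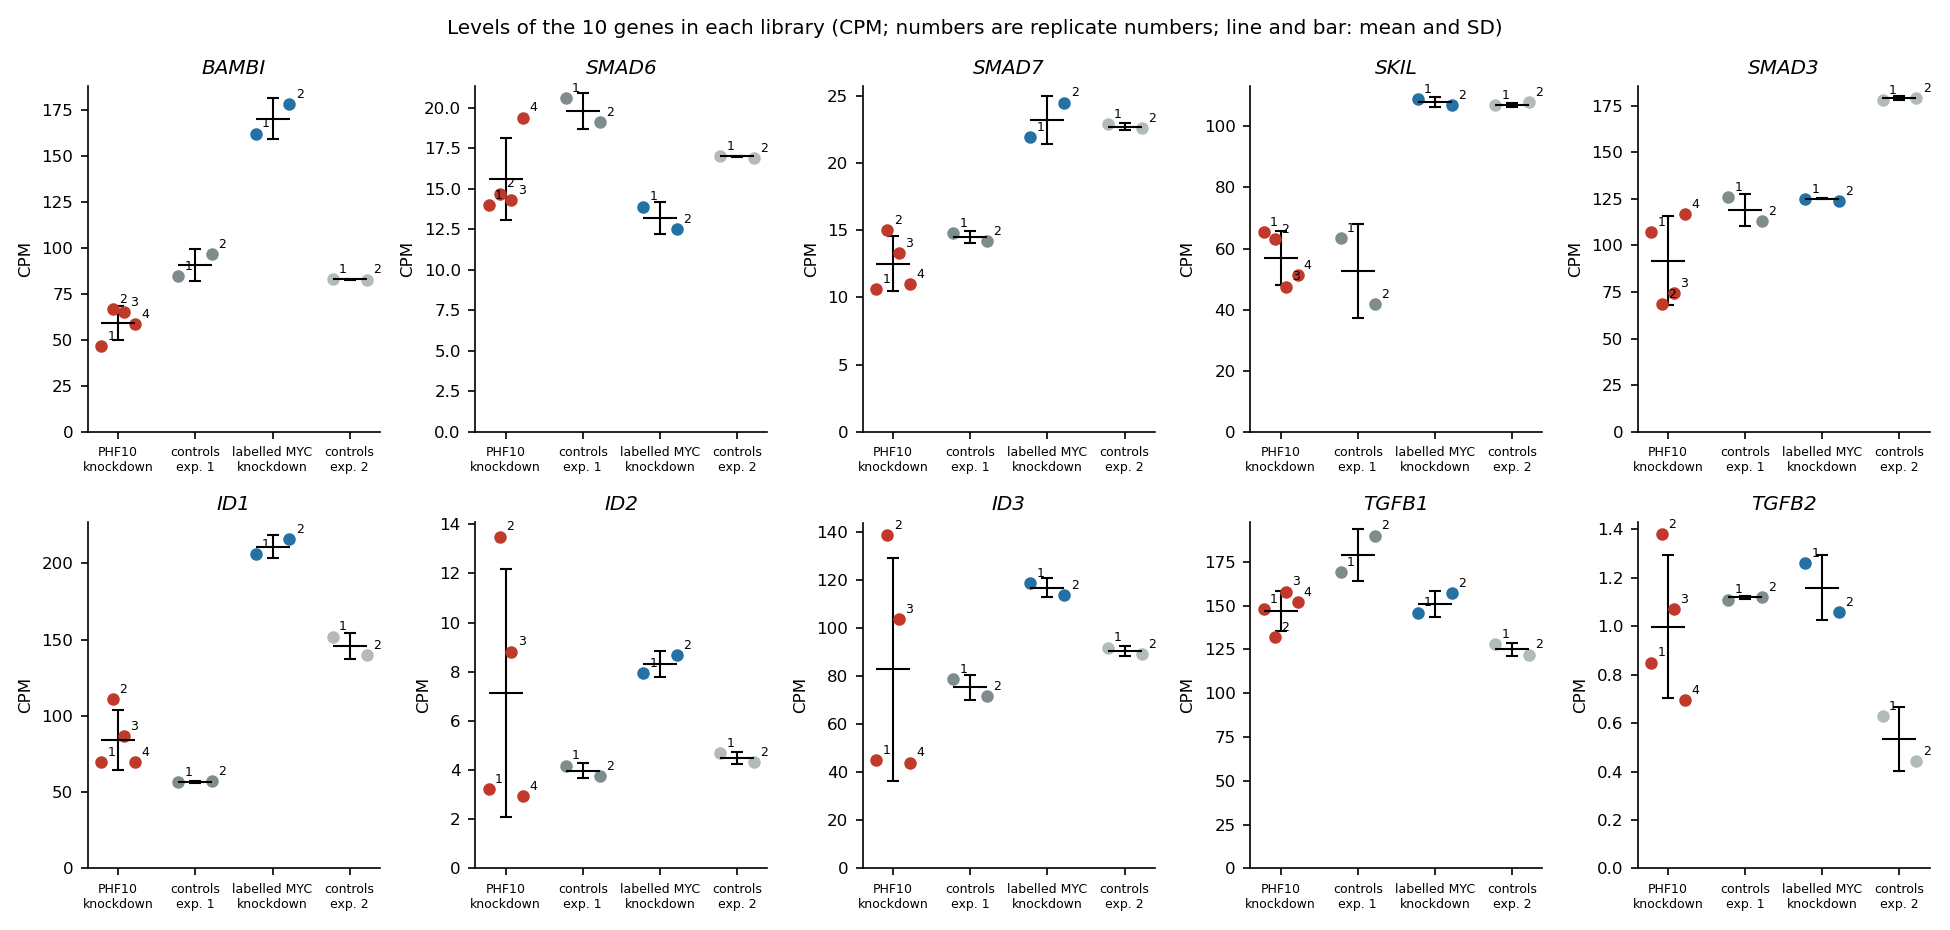
CPM of each of the 10 genes (vertical axes, from 0) in the 4 groups, left to right PHF10 knockdown, its controls, labelled MYC knockdown and its controls. Points are libraries with their replicate number, and lines and bars are mean and SD (n = 4 for PHF10 knockdown, n = 2 for each other group). BAMBI lies below its controls in experiment 1 and above them in experiment 2, and ID2 and ID3 spread most among the PHF10 knockdown libraries.

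The other 3 feedback inhibitors were not called in either comparison. SMAD6, the inhibitory SMAD that acts mainly on the BMP branch, had 14.0, 14.7, 14.3 and 19.4 CPM after PHF10 knockdown, against 20.6 and 19.1 CPM in the controls. Libraries 1, 2 and 3 lay below both controls and library 4 lay between them (log2 fold change −0.35, SE 0.15, adjusted p = 0.201). Without library 4 the log2 fold change was −0.47 and its adjusted p 0.0493. The other 9 fits without one library and the 12 other alternatives did not call SMAD6. Over the fits without one library its log2 fold change spanned −0.47 to −0.30. In experiment 2 the labelled MYC knockdown libraries had 13.9 and 12.5 CPM and their controls 17.0 and 16.9 CPM (−0.36, SE 0.17, adjusted p = 0.413). SMAD6 was lower there with no overlap, as were 36.0% of all genes tested.

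SMAD7, which recruits ubiquitin ligases to the TGF-beta receptor, had 10.6, 15.0, 13.3 and 11.0 CPM after PHF10 knockdown, against 14.8 and 14.2 CPM in the controls. The groups overlapped through library 2 (log2 fold change −0.22, SE 0.15, adjusted p = 0.449). SMAD7 in the labelled MYC knockdown had 21.9 and 24.5 CPM, against 22.9 and 22.6 CPM, so that the knockdown libraries lay on either side of the controls (0.03, SE 0.17, adjusted p = 0.967). SKIL had 65.5, 63.2, 47.5 and 51.4 CPM after PHF10 knockdown, against 63.5 and 41.7 CPM in the controls. Relative to their mean, its 2 controls stood farther apart than those of any of the other 9 genes, and the higher control and the higher knockdown libraries were those of the interferon-high part (log2 fold change 0.11, SE 0.18, adjusted p = 0.768). Within the interferon-high and low parts the differences of SKIL were 0.02 and 0.25. SKIL in the labelled MYC knockdown had 109 and 107 CPM, against 107 and 108 CPM, the smallest change of the 10 genes in that comparison (0.01, SE 0.21, adjusted p = 0.994).

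SMAD3, the receptor-activated SMAD of the TGF-beta branch, averaged lower in both knockdowns and passed the test in neither. It had 107, 68.6, 74.4 and 117 CPM after PHF10 knockdown, against 126 and 113 CPM in the controls. Libraries 2 and 3 were low, and libraries 1 and 4 were near the controls (log2 fold change −0.38, SE 0.20, adjusted p = 0.303). SMAD3 in the labelled MYC knockdown had 125 and 124 CPM, against 178 and 179 CPM, with no overlap (−0.52, SE 0.24, adjusted p = 0.384). Of all genes tested, 36.0% were lower there without overlap. The SE of SMAD3 in experiment 2 comes from the spread over all 10 libraries and not from its 2 replicates there alone.

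ID1 was above its controls in every knockdown library of both experiments, without passing the test in either. Of all genes tested, 13.4% lay above their controls in this way after PHF10 knockdown and 33.6% in the labelled MYC knockdown. The share that did so in both was not counted. ID1 had 69.7, 111, 86.8 and 69.6 CPM after PHF10 knockdown, against 56.3 and 57.2 CPM in the controls (log2 fold change 0.57, SE 0.18, adjusted p = 0.103). Experiment 2 had 206 and 216 CPM in the labelled MYC knockdown and 152 and 140 CPM in its controls (0.53, SE 0.21, adjusted p = 0.313). Within the interferon-high part of experiment 1 the difference was 0.64, and within the low part 0.44. DESeq2 put the adjusted p of the PHF10 comparison at 0.0404, and the edgeR test with no filter on low counts at 0.0238. Both of these settings also called more genes overall than the main fit. The other 10 alternatives that kept all libraries or one interferon part did not call ID1. Neither did any fit without one library, where its log2 fold change spanned 0.41 to 0.65.

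ID2 and ID3 split the PHF10 knockdown libraries into a high and a low pair. ID2 had 3.22, 13.5, 8.82 and 2.95 CPM, against 4.18 and 3.76 CPM in the controls, so libraries 2 and 3 stood above the controls and libraries 1 and 4 below them (log2 fold change 0.85, SE 0.56, adjusted p = 0.409). Without library 2 its log2 fold change was 0.34, and over all fits without one library it spanned 0.34 to 1.11. None of those fits called ID2, and 1 of the other alternatives called it higher. ID3 had 45.2, 139, 104 and 44.1 CPM, against 79.0 and 71.8 CPM, with the same libraries high and low (0.14, SE 0.42, adjusted p = 0.885). The direction of ID3 turned to −0.22 without library 2. The high pair holds one library of each interferon part, as does the low pair, and within the high and low interferon parts ID2 differed by 0.65 and 0.44 and ID3 by 0.00 and −0.08. The SD of ID2 was 70.9% of its mean in the PHF10 knockdown libraries and 7.48% in their controls, and that of ID3 was 56.1% and 6.77%.

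In experiment 2 both genes were higher in the labelled MYC knockdown without overlap, as were 33.6% of all genes tested. ID2 had 7.93 and 8.69 CPM, against 4.68 and 4.32 CPM (log2 fold change 0.88, SE 0.61, adjusted p = 0.606). ID3 had 119 and 114 CPM, against 92.0 and 89.2 CPM (0.36, SE 0.48, adjusted p = 0.825). ID2-AS1, the antisense RNA opposite ID2, stayed at or under 1.34 CPM in every library, and the strand-specific counts keep them apart. The E proteins TCF3, TCF4 and TCF12, the partners that ID proteins hold back, were not called. TCF3 came nearest after PHF10 knockdown, with 25.4, 35.9, 43.2 and 29.3 CPM, against 46.6 and 57.0 CPM in the controls (−0.63, SE 0.19, adjusted p = 0.0811).

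The ligand TGFB1 had fold changes of opposite sign in the 2 experiments, as BAMBI did, and was not called. It had 148, 132, 158 and 152 CPM after PHF10 knockdown, against 169 and 190 CPM in the controls, all lower (log2 fold change −0.28, SE 0.11, adjusted p = 0.159). It had, in the labelled MYC knockdown, 146 and 157 CPM, against 128 and 122 CPM, both higher (0.27, SE 0.13, adjusted p = 0.398). Of all genes tested, 13.7% were lower without overlap after PHF10 knockdown and 33.6% higher without overlap in the labelled MYC knockdown. The difference between the effects was −0.56 (SE 0.17) with an adjusted p of 0.206 by edgeR and 0.0408 by DESeq2. It was called in 2 of the alternatives other than leaving out a library, DESeq2 among them. After PHF10 knockdown TGFB1 was called lower in 1 of those alternatives. No fit that left out a library called TGFB1 in either of these comparisons. TGFB1 overlaps HNRNPUL1, CCDC97 and TMEM91 on the opposite strand, whose reads the strand-specific column leaves out.

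TGFB2 was rare, with 14 to 47 reads per library. It had 0.850, 1.38, 1.07 and 0.694 CPM after PHF10 knockdown, against 1.11 and 1.12 CPM in the controls (log2 fold change −0.16, SE 0.32, adjusted p = 0.822). The labelled MYC knockdown libraries had 1.26 and 1.06 CPM, against 0.628 and 0.442 CPM in their controls, which do not overlap (1.11, SE 0.37, adjusted p = 0.226). Its fold change in experiment 2 was the largest of the 10 genes, with the widest SE after ID2 and ID3. Of all genes tested, 33.6% were higher in that comparison without overlap.

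**Figure D2:**
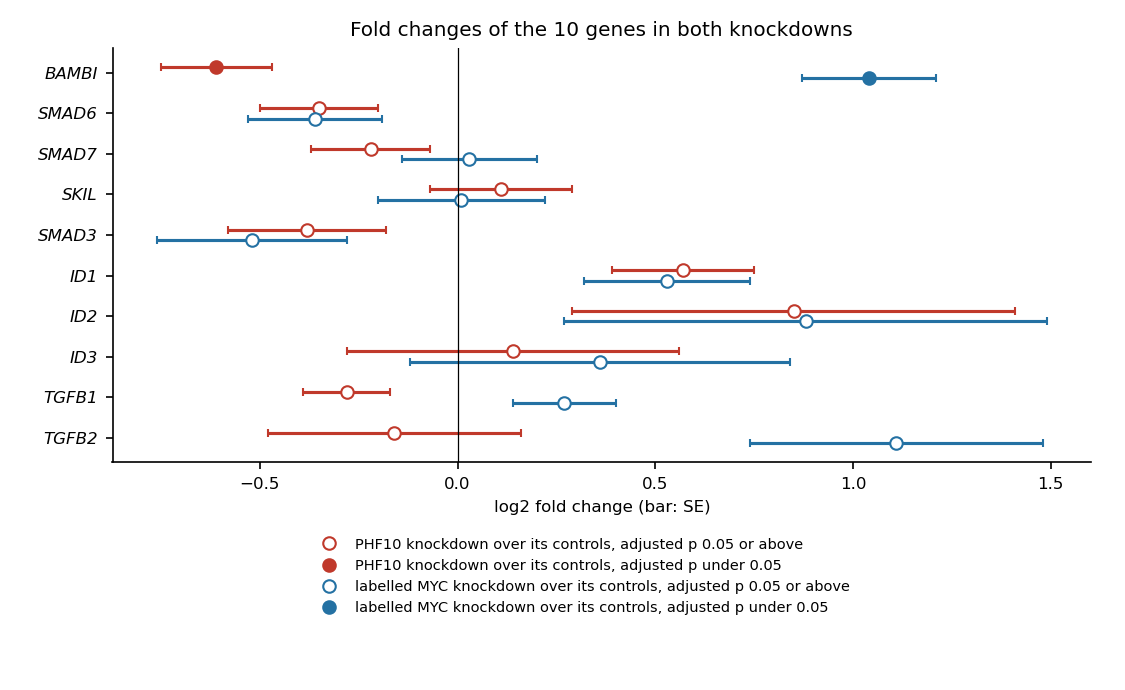
Log2 fold changes (horizontal axis) of the 10 genes after PHF10 knockdown and in the labelled MYC knockdown, each over its own controls, with SE bars from the edgeR fit. Filled points have an adjusted p under 0.05, which BAMBI alone has, at −0.61 and 1.04. SMAD6 and SMAD3 lie below 0 in both experiments, and ID1, ID2, ID3 and SKIL above it, SKIL at 0.11 and 0.01.

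Counted together, 1 of the 10 genes was called lower and 0 higher after PHF10 knockdown, and 1 was called higher and 0 lower in the labelled MYC knockdown. At an unadjusted p under 0.05 there were 4 of 10 in the first comparison, where 22.7% of all genes reached it, and 3 of 10 in the second, where 13.2% did. The median log2 fold change of the 10 was −0.19 after PHF10 knockdown and 0.32 in the labelled MYC knockdown, beside 0.02 and −0.01 over all genes tested. After PHF10 knockdown 1 gene lay above and 2 lay below both controls without overlap, where 13.4% of all genes lay above and 13.7% below, 27.2% together. Of the same genes 6 lay above and 2 below in the labelled MYC knockdown, where 33.6% of all genes lay above and 36.0% below, 69.7% together. The 8 without overlap are all but SKIL and SMAD7.

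The count in experiment 2 depends on which libraries estimate the spread. The biological coefficient of variation was 3.39% in experiment 2 alone, 26.69% in experiment 1 alone and 21.44% over all libraries. Fitted alone, experiment 2 called 8 of the 10 genes, all but SKIL and SMAD7, with BAMBI, ID1, ID2, ID3, TGFB1 and TGFB2 higher and SMAD3 and SMAD6 lower. That fit also called 44.5% of all genes tested in it. The adjusted p was 2.7e-14 for ID1, 1.9e-14 for SMAD3, 1.5e-09 for ID3 and 0.00088 for SMAD6. Experiment 1 fitted alone called 0 of the 10 and 0.28% of all genes. After PHF10 knockdown DESeq2 on all libraries called 2 of the 10, ID1 higher and BAMBI lower. It also called more genes overall than the main fit, which called 6.34% of all genes tested.

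Over the 10 libraries, knockdown effects included, ID genes and SMAD3 went opposite ways. After the mean of its experiment was subtracted from each gene's log2 CPM, Pearson's r over the 10 libraries was 0.925 between ID2 and ID3 and 0.872 between ID1 and ID2. It was −0.949 between SMAD3 and ID1, −0.935 between SMAD3 and ID2 and −0.756 between SMAD3 and ID3. SMAD6 went with SMAD3 (r = 0.821), and BAMBI went with TGFB1 (r = 0.802). SKIL followed none of the others, its r lying between −0.533 with TGFB1 and 0.207 with ID1. These values describe 10 libraries that share knockdown effects, library preparation and depth scaling, and are given without a test. No r was computed within an experiment or a group. In experiment 2 the centred SMAD3 was −0.26 and −0.26 in the labelled MYC knockdown and 0.25 and 0.27 in its controls, which separates groups only. Among PHF10 knockdown libraries 1 to 4, BAMBI stood at −0.54, −0.02, −0.05 and −0.21 and TGFB1 at −0.09, −0.25, 0.01 and −0.04.

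**Figure D3:**
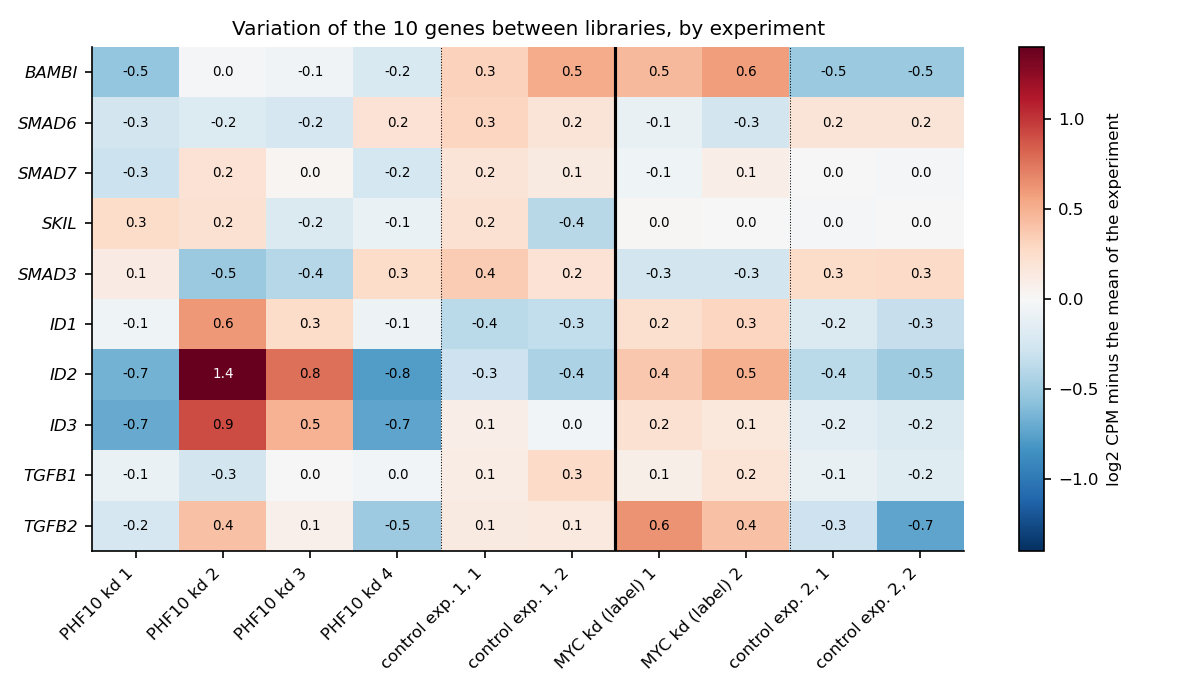
Log2 CPM minus the mean of the gene's experiment for the 10 genes (rows) in the 10 libraries (columns), with the solid line between the experiments and dotted lines between knockdown and control libraries. Red is above and blue below the mean. Of the 6 libraries of experiment 1, PHF10 knockdown libraries 2 and 3 have the highest ID1, ID2 and ID3 and the lowest SMAD3.

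The same pair of PHF10 knockdown libraries stood apart for other genes of the pathway. FST, a secreted trap for activin, had 1430, 155, 314 and 936 CPM in PHF10 knockdown libraries 1 to 4, against 611 and 601 CPM in the controls. CCN2, a matricellular target of TGF-beta, had 63.7, 18.7, 22.2 and 71.4 CPM, against 27.8 and 26.0 CPM, and its relative CCN1 had 124, 39.0, 44.2 and 122 CPM, against 69.5 and 68.7 CPM. The activin receptor gene ACVR2B had 50.6, 17.6, 21.2 and 49.7 CPM, against 23.3 and 24.6 CPM. These 4 genes were high in libraries 1 and 4, where ID2 and ID3 were low, and their group comparisons were not called (adjusted p = 0.889, 0.453, 0.791 and 0.473). They were singled out after their values were seen. Genes outside the pathway list split the same way, and how many of all genes do so was not counted. AGMO, close to SMAD3 in pattern, had 79.2, 46.0, 42.9 and 90.1 CPM in PHF10 knockdown libraries 1 to 4. EXOC5, close to ID3 in pattern, had 36.0, 68.5, 58.8 and 33.5 CPM.

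Per kilobase of merged exon, the order of levels in the controls of experiment 1 was TGFB1 at 55.4 CPM per kb, ID1 at 46.0, ID3 at 41.9 and BAMBI at 39.1, of which ID3 and BAMBI overlapped between libraries. SMAD3 followed at 13.1 and SKIL at 6.76 CPM per kb. The inhibitory SMADs were far lower, SMAD7 at 2.88 and SMAD6 at 2.32 CPM per kb, with ID2 at 1.80 and TGFB2 at 0.217. In the controls of experiment 2 ID1 led at 119 CPM per kb, before ID3 at 50.4, TGFB1 at 38.7, BAMBI at 35.8, SMAD3 at 19.6 and SKIL at 13.8. SMAD7 had 4.52, ID2 2.04 and SMAD6 1.98 CPM per kb, the last 2 overlapping, and TGFB2 had 0.104. Of ID1, ID2 and ID3, the dominant gene was thus ID1 in experiment 2, whereas in the controls of experiment 1 ID1 and ID3 were close. ID2 was the rarest of ID1, ID2 and ID3 in all 4 groups.

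Around these genes, 113 genes of the TGF-beta and BMP pathway were listed by role, the 10 included, and 93 could be tested. After PHF10 knockdown 7 were called higher and 9 lower, with a median log2 fold change of 0.12 beside 0.02 over all genes tested, where 2.75% of all genes were called higher and 3.58% lower. BAMBI alone was called higher and 1 gene lower in the labelled MYC knockdown, where 0.282% of all genes were called higher and 0.211% lower. The median there was 0.16, beside −0.01 over all genes tested. None of the 5 TGF-beta and activin ligands tested was called. Of 6 BMP ligands, BMP4 rose after PHF10 knockdown, with 4.52, 3.73, 5.30 and 5.77 CPM, against 2.32 and 2.98 CPM in the controls (0.86, SE 0.22, adjusted p = 0.0496). BMP4 in the labelled MYC knockdown had 7.51 and 7.59 CPM, against 3.65 and 3.50 CPM, and was not called (1.08, SE 0.24, adjusted p = 0.0839). BMP7 had 5.02 and 6.59 CPM there, against 2.74 and 3.06 CPM (1.00, SE 0.21, adjusted p = 0.0722).

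Genes that hold or release latent TGF-beta were called higher in 3 of 9 cases after PHF10 knockdown, beside 2.75% of all genes. LTBP3, which tethers the latent ligand to the matrix, had 714, 736, 743 and 732 CPM, against 442 and 461 CPM in the controls (0.70, SE 0.12, adjusted p = 0.0111). LTBP4, of the same family, rose by 0.42 on the log2 scale (adjusted p = 0.043), and ITGAV, the integrin subunit that activates latent TGF-beta, by 0.56 (adjusted p = 0.026). LTBP1 had a fold change of the opposite sign, −0.53 (SE 0.16, adjusted p = 0.0839). None of the 9 was called in the labelled MYC knockdown, where only 0.493% of all genes tested were. THBS1, a matrix protein that activates latent TGF-beta, came nearest there with 494 and 538 CPM, against 1210 and 1210 CPM (−1.23, SE 0.23, adjusted p = 0.055).

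Of 13 receptor genes, TGFBR2, the ligand-binding TGF-beta receptor, rose after PHF10 knockdown, with 162, 208, 152 and 163 CPM, against 115 and 108 CPM in the controls (0.62, SE 0.14, adjusted p = 0.0324). BMPR1A, a BMP receptor kinase, fell, with 47.0, 45.8, 42.4 and 47.8 CPM, against 67.4 and 64.0 CPM (−0.52, SE 0.09, adjusted p = 0.0124). Among the SMADs that carry the signal, SMAD5 of the BMP branch fell by 0.56 on the log2 scale (adjusted p = 0.0281) and the other 5 were not called. Of 11 extracellular antagonists 2 were called, FSTL3, which binds activin, higher with 1.15 (adjusted p = 0.023) and CHRDL1, which binds BMPs, lower with −1.81 (adjusted p = 0.0335). Of all genes tested, 6.34% were called after PHF10 knockdown. None of these 5 genes was called in the labelled MYC knockdown, where only 0.493% of all genes tested were.

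Of 15 intracellular inhibitors, TGIF2, a homeodomain corepressor of SMAD complexes, was lower in both experiments. It had 26.4, 26.1, 23.3 and 22.2 CPM after PHF10 knockdown, against 41.2 and 39.7 CPM in the controls (−0.72, SE 0.10, adjusted p = 0.00573). It had 24.0 and 24.9 CPM in the labelled MYC knockdown, against 44.2 and 45.6 CPM (−0.88, SE 0.12, adjusted p = 0.0256). LDLRAD4, a membrane protein that keeps SMAD2 and SMAD3 from the receptor, fell after PHF10 knockdown (−1.16, SE 0.26, adjusted p = 0.0286) and stood at 0.17 (SE 0.30, adjusted p = 0.878) in the labelled MYC knockdown. PMEPA1, a TGF-beta-induced inhibitor, lay above its controls in both, with 139, 202, 191 and 161 CPM after PHF10 knockdown, against 112 and 117 CPM, and 1270 and 1380 CPM in the labelled MYC knockdown, against 694 and 686 CPM. Its adjusted p was 0.0627 and 0.0628.

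Of 19 TGF-beta targets tested 3 were called after PHF10 knockdown, and of 9 BMP targets 1, where 6.34% of all genes were. IL11, a cytokine, was called higher (1.17, adjusted p = 0.0282), and SNAI1 and SNAI2, repressors linked to epithelial-mesenchymal transition, were called lower (−0.57, adjusted p = 0.0354, and −1.92, adjusted p = 0.0141). SNAI2 was rare in that experiment, at 0.581, 1.05, 1.41 and 0.998 CPM, against 2.46 and 5.23 CPM. The BMP target was ID4, the remaining ID gene, which was called lower, with 3.76, 2.92, 2.59 and 5.16 CPM after PHF10 knockdown, against 6.97 and 8.77 CPM in the controls (−1.13, SE 0.25, adjusted p = 0.0303). ID4 in the labelled MYC knockdown had 8.47 and 8.62 CPM, against 4.79 and 4.95 CPM (0.81, SE 0.30, adjusted p = 0.274). ID4 thus lay on the other side of its controls from ID1 after PHF10 knockdown and on the same side in the labelled MYC knockdown, and no test of that contrast between genes was made.

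These calls leaned on single libraries too. After PHF10 knockdown 2 of the 93 were called without control 1 of experiment 1 and 1 without control 2. The first fit kept CHRDL1 (log2 fold change −2.38, adjusted p = 0.0325) and SNAI2 (−2.36, 0.0282), and the second kept TGIF2 (0.0462). Without control 2 the log2 fold change was −0.89 for CHRDL1 (adjusted p = 0.364) and −1.27 for SNAI2 (0.16). Leaving out any one library of experiment 2 left 5 calls, and experiment 1 alone gave 0. TGIF2 in the labelled MYC knockdown had an adjusted p of 0.279 and 0.344 without labelled MYC knockdown library 1 or 2, and of 0.253 and 0.345 without control 1 or 2.

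**Figure D4:**
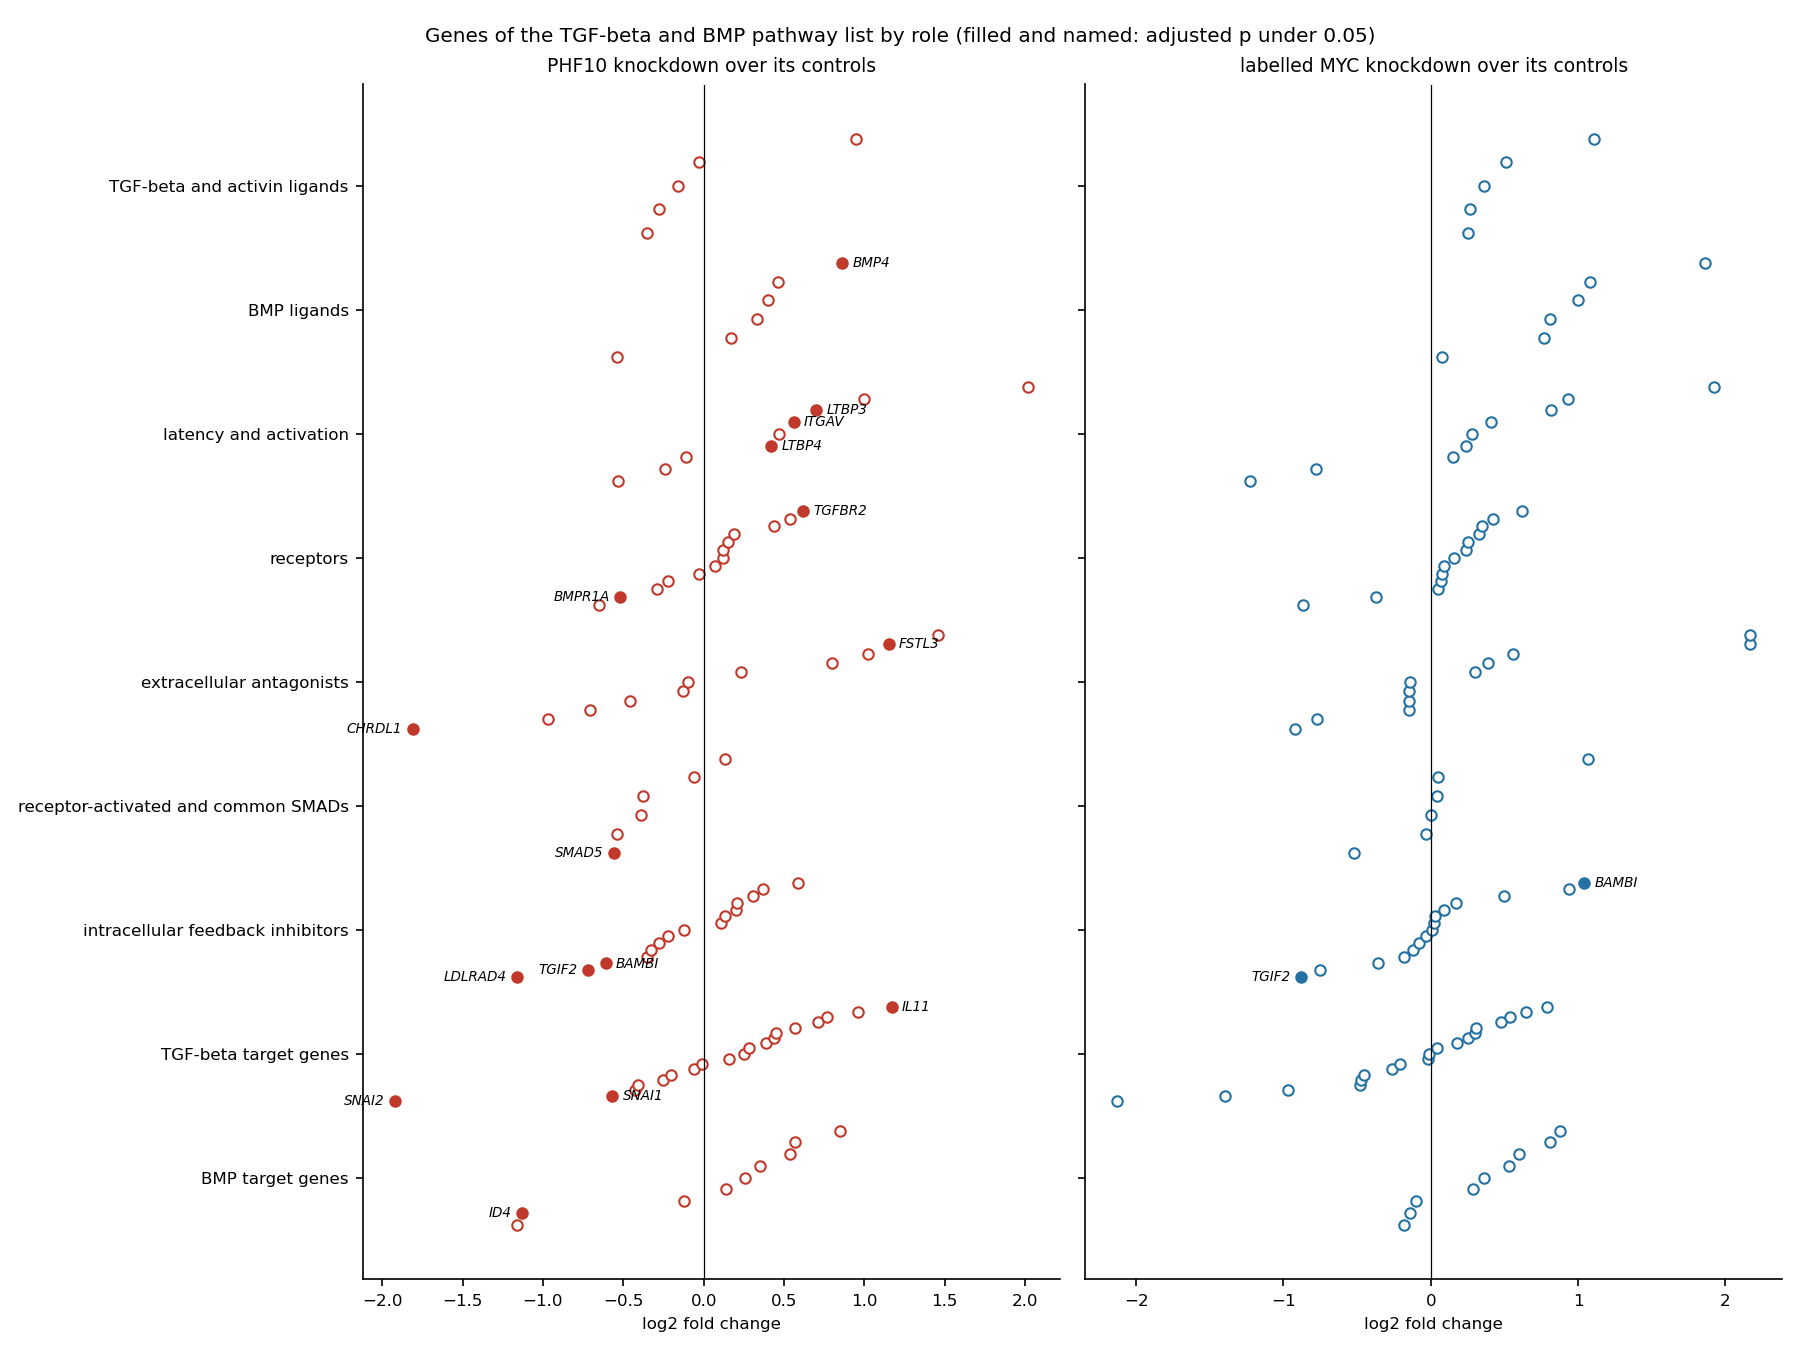
Log2 fold change (horizontal axes) of the 93 tested genes of the pathway list, one point per gene, in rows by role, after PHF10 knockdown (left) and in the labelled MYC knockdown (right), each over its own controls. Within a row points are sorted by fold change, and filled, named points have an adjusted p under 0.05. There are 16 such genes on the left and 2 on the right.

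The gene whose pattern over the 10 libraries was most like that of BAMBI was LTBP1, which encodes a binding protein of latent TGF-beta (r = 0.992 of log2 CPM centred by experiment, among genes with a mean over 5 CPM). LTBP1 had 5.99, 7.94, 7.75 and 7.20 CPM after PHF10 knockdown, against 9.52 and 11.3 CPM in the controls. Experiment 2 had 11.7 and 12.8 CPM in the labelled MYC knockdown and 6.05 and 6.85 CPM in its controls. Since the likeness covers the differences between knockdown and control libraries, that LTBP1 lies on the same side of its controls as BAMBI follows from the choice and is given as a description. CASK (r = 0.978) and MEX3C (r = 0.960) came next for BAMBI.

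**Figure D5:**
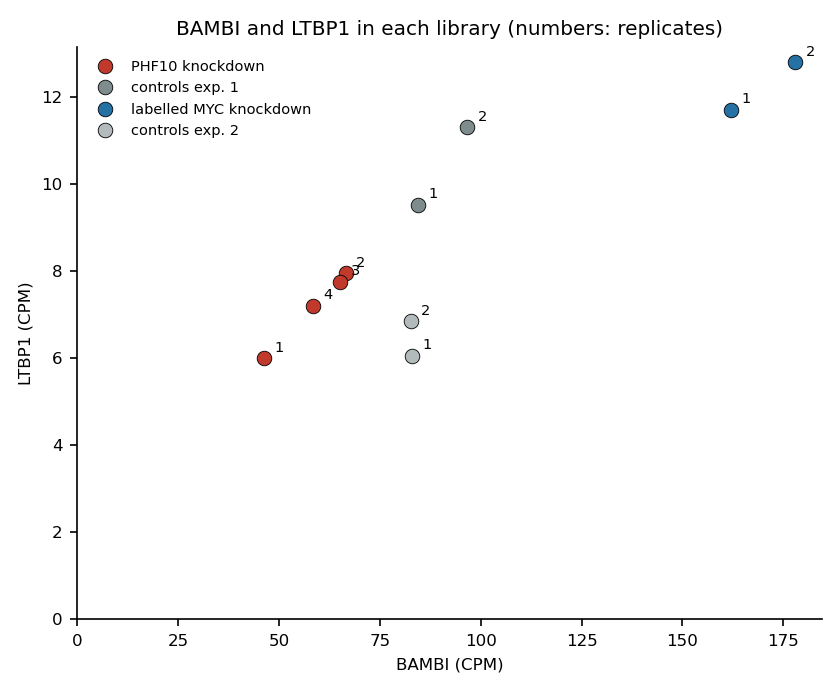
LTBP1 against BAMBI, both in CPM with axes from 0, in each of the 10 libraries, coloured by group and numbered by replicate. In each experiment the 2 genes rank the knockdown and control groups the same way, with PHF10 knockdown lowest in experiment 1 and labelled MYC knockdown highest in experiment 2.

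For the other genes the closest patterns were those of COL6A2, a collagen chain, with SMAD7 (r = 0.994), MTRR, a methionine synthase reductase, with SMAD3 (r = 0.992) and ADGRE1 with SKIL (r = 0.989). KCNC4, a potassium channel, was closest to ID1 (r = 0.987), PRR14 to ID2 (r = 0.986) and RNF182 to ID3 (r = 0.982). For TGFB1, SMAD6 and TGFB2 the closest were S100A1 (r = 0.955), SNORD104 (r = 0.944) and PSKH1 (r = 0.942). RNF182 had 10.2, 35.1, 28.1 and 11.3 CPM after PHF10 knockdown, against 17.2 and 17.6 CPM in the controls, with the libraries that were high and low for ID2 and ID3. Each r is the highest of many over only 10 libraries and is a description.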

How the data were processed

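Poly(A)-selected RNA of 10 A375 libraries was sequenced as single reads of 100 nt from a directional kit, per the labels' protocols. Reads were trimmed with cutadapt and then aligned and counted with STAR, and the submitters' processing notes name the build GRCh38.p13 (hg38) and no annotation. The authors deposited raw read counts per Ensembl gene, and the column for the opposite strand was used. Same-strand reads made up 5.26% to 5.55%, and lines that name no gene, 19.06% to 23.6% of a library, were left out.

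Gene names came from a table of IDs and symbols and from GENCODE release 29, and 199 of 202 list entries matched. The main test was the quasi-likelihood test of edgeR 4.0.16 in R 4.3.3 on all 10 libraries as 4 group means, after filterByExpr by group and TMM scaling, with robust spread. The fit had 18450 genes and 6 residual degrees of freedom. An adjusted p is Benjamini-Hochberg over these genes, with a threshold of 0.05. CPM are counts over TMM-scaled library sizes. The code was tested on simulated data. Replicate numbers were not taken to pair the samples.

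The genes, the pathway list by role and the alternatives were chosen with earlier results of these data known. Named are the 10 genes, PHF10, MYC, the E proteins, antisense neighbours, pathway genes past the threshold or nearest to it in a role, and for each of the 10 the genes of closest pattern. Alternatives were DESeq2 1.42.0, limma-voom (limma 3.58.1), RLE and upper-quartile factors, no filter, a filter of 1 CPM in 4 libraries, unstranded counts, each experiment fitted alone, a replicate block, the interferon part of experiment 1 as a term, and leaving out each library. Fits on one interferon part only were added after seeing the data. The siRNA sequences were not used here.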

Additional observations from a re-analysis of the deposited data

Results flagged for a closer look

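SMAD6 after PHF10 knockdown held a library far from the other 3. Library 4 had 19.4 CPM, against 14.0 to 14.7 CPM in libraries 1 to 3, a gap above Dixon's 95% critical value for 4 samples. Chance alone gives such a gap in about 1 in 20 groups, and each of the 10 genes was examined.

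The effects of the 2 knockdowns on BAMBI differed, and each knockdown was in its own experiment, so knockdown and experiment cannot be told apart. The PHF10 effect minus the labelled MYC effect was −1.65 on the log2 scale, with an adjusted p of 0.0266 from the contrast in edgeR, and all 4 PHF10 knockdown libraries lay below their controls while both labelled MYC knockdown libraries lay above theirs. Among the other genes of the pathway list LTBP1 alone had a called difference, −1.45 with an adjusted p of 0.0473 in edgeR. It is also the gene closest to BAMBI in pattern over these libraries, so its difference adds no separate evidence. That call held in 2 of 10 fits without one library, those without PHF10 knockdown library 1 (0.0368) or 2 (0.0419). It missed without library 3 (0.0544) or 4 (0.0685), without control 1 (0.103) or 2 (0.162) of experiment 1, and without any one library of experiment 2 (0.249 to 0.305). Since the RNA of MYC itself did not separate the groups of experiment 2, the labels alone say what that experiment changed.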

How the results depend on the processing

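In the fit reported above PHF10 knockdown called 1169 genes, of which 1 of the 10 and 16 of the pathway list, the labelled MYC knockdown called 91, 1 and 2, and the difference between the effects 71, 1 and 2. The same counts, in that order, moved as follows. DESeq2 called 2165, 2 and 25 after PHF10 knockdown, 720, 1 and 17 in the labelled MYC knockdown and 633, 2 and 15 in the difference. With limma-voom the labelled MYC knockdown gave 211 genes and 6 of the pathway list. With no filter the counts were 2372, 3 and 27 after PHF10 knockdown, 911 genes and 16 of the list in the labelled MYC knockdown, and 918 and 16 in the difference. Each experiment fitted alone gave 50, 0 and 0 after PHF10 knockdown and 7781, 8 and 62 in the labelled MYC knockdown, and has no difference between effects. With the interferon part as a term they were 2467, 2 and 27, then 558 and 9, then 489, 2 and 12. On the interferon-high part alone PHF10 knockdown gave 523, 0 and 3 and the difference 6, 0 and 0, and on the low part the difference gave 262 and 10 of the list. Leaving out one library at a time gave 214 to 1387 genes, 0 to 1 of the 10 and 1 to 18 of the list after PHF10 knockdown. It gave 0 to 231, 0 to 1 and 0 to 7 in the labelled MYC knockdown, and 1 to 140, 0 to 1 and 0 to 3 in the difference. PHF10 knockdown called 214 genes without control 1 of experiment 1 and 219 without control 2. Without any one library of experiment 2 it called 594 to 626, and the labelled MYC knockdown called 0 by edgeR, with 1159 to 1431 genes at an unadjusted p under 0.05 in those fits and 2435 with all libraries. The causes were not tested beyond the smaller number of samples in such fits.

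For BAMBI the adjusted p stayed under 0.05 in 13 of 22 alternatives after PHF10 knockdown, 12 of 20 in the labelled MYC knockdown and 13 of 21 for the difference. On the interferon-high part alone it was −0.60 (adjusted p = 0.213) after PHF10 knockdown. Signs turned for genes with changes near 0. ID3 after PHF10 knockdown was −0.04 with limma-voom and SKIL −0.0042 on the interferon-high part. In the difference SMAD6 was −0.0016 with limma-voom, and on the interferon-high part SMAD6 was −0.19, SKIL −0.02, SMAD3 −0.03 and ID2 0.09, while ID1 was −0.08 on the low part. Without one library, ID3 spanned −0.22 to 0.35 and SKIL −0.16 to 0.44 after PHF10 knockdown, and SKIL −0.01 to 0.02 and SMAD7 −0.05 to 0.10 in the labelled MYC knockdown. The difference spanned −0.11 to 0.12 for ID1, −0.54 to 0.22 for ID2, −0.11 to 0.09 for SMAD6 and −0.17 to 0.44 for SKIL.

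Samples share replicate numbers. The deviations of same-numbered samples from their group means correlated at 0.484 and −0.297 in experiment 1 and −0.031 in experiment 2. In a group of 2 libraries the deviations mirror each other, so these values cannot settle whether the numbers pair the samples. The numbers were not taken to pair them. With a replicate block the PHF10 comparison called 7 of the pathway list, the labelled MYC knockdown 0 genes (3036 at an unadjusted p under 0.05 by edgeR), 0 of the 10 and 0 of the list, and the difference 1, 0 and 0. BAMBI under the block was 1.04 (adjusted p = 0.108) in the labelled MYC knockdown and −1.74 (0.0732) in the difference, and SMAD6 in the difference was −0.10. Depth limits TGFB2 most, at 14 to 47 reads per library.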
